A study of Mus musculus with 36 samples.

Results

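In mouse embryonic stem cells, 2850 genomic regions held peaks of Oct4, Sox2 and Nanog together after 24 h in 2i medium, having held peaks of at most 2 of these factors in serum. They were found by merging 6 peak lists, 1 for each factor in each medium, wherever peaks shared at least 1 bp. The merge gave 49202 regions, of which the 2850 made up 5.79%. They are called completed regions below. Another 2939 regions held all 3 factors in both media and are called kept regions. All values that chose the completed regions came from these 6 lists, so their presence there is a description and not a finding.

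The cells were KH2, an established mouse embryonic stem cell line, grown on irradiated mouse fibroblast feeders with serum and LIF (standard serum), moved for 24 h to 2i with LIF, or kept in 2i with LIF for 3 passages. 2i is a serum-free medium with inhibitors of the kinases MEK and GSK3. Nanog was mapped with 2 lots of the same antibody. The first lot served the standard serum, 24 h and 3 passage cells, and the second served serum cells labelled GFP-high, KH2 cells at 24 h, and DNA methyltransferase triple knockout (TKO) cells at 24 h. The labels do not say which reporter gave the GFP, and the labels give TKO cells as another source than KH2. Oct4 was mapped in 2 of the KH2 conditions (serum, 24 h), and Sox2 and the histone mark H3K4me3 in all 3. Each condition had 1 deposited list and no value per replicate, so no difference between media could be set against replicate error. The 14 lists held from 5011 to 41755 peaks on the main chromosomes, and read depth is unknown because the lists hold no counts.

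Oct4, a POU-domain protein, and Sox2, an HMG-box protein, bind DNA side by side at composite sites and form the core of the pluripotency network together with Nanog, a homeodomain protein. Regions bound by all 3 in embryonic stem cells are typically enhancers. H3K4me3 marks mainly active promoters, and its absence at a bound region is usual for a distal site.

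Completed regions differed in what they held in serum. Sox2 and Nanog without Oct4 was the starting state of 1242 regions, or 43.6%, and Nanog alone that of 806, or 28.3%. Oct4 and Nanog without Sox2 had been called at 336, Oct4 and Sox2 without Nanog at 82, Sox2 alone at 70 and Oct4 alone at 45. None of the factors had been called at 269, or 9.44%. Thus 1660 regions added 1 factor, 921 added 2 and 269 added all 3. The order of the states depended on how the lists were cut. With the 2 lists of each factor at equal length, 629 completed regions began with Sox2 and Nanog, 410 with Nanog alone and 86 with none. With these lists ending at the same −log10 q the counts were 644, 160 and 25, in the same order. With each of the 6 lists reduced to the 5011 peaks of highest −log10 q there were 818 completed regions, of which 199 began with no factor, 162 with Sox2 and Nanog and 79 with Nanog alone. Counted by factor, Oct4 had not been called in serum at 2387 of the 2850 regions, Sox2 at 1456 and Nanog at 466.

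The starting states are not equally common among all merged regions, so the same counts were also read as shares of each state. Oct4 and Nanog in serum was followed by all 3 factors at 24 h in 51.5% of 652 regions, and Oct4 and Sox2 in 34.3% of 239. From Sox2 and Nanog it was 17.1% of 7246 regions. States with 1 factor gave 9.22% of 488 regions for Oct4, 5.85% of 13771 for Nanog and 3.8% of 1840 for Sox2. Of the 21361 regions with no factor called in serum, 1.26% held all 3 at 24 h. Over all 45597 regions with at most 2 factors in serum the share was 6.25%. All 3 states that included Oct4, and Sox2 with Nanog, thus stood above this value. The states with Oct4 were also the rarest, and the serum Oct4 list was the shortest of the 6.

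**Figure D1:**
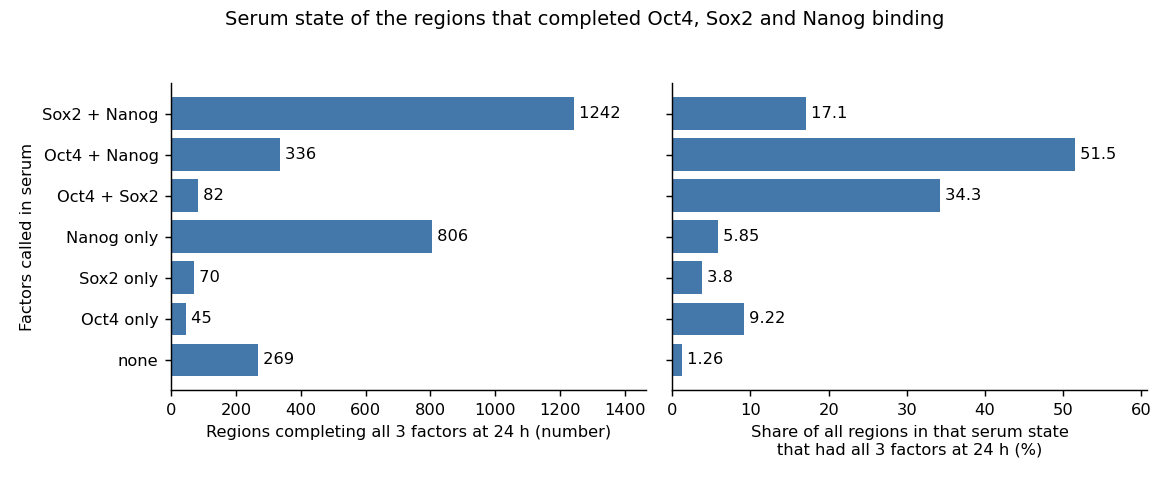
Number of completed regions by the factors called in serum (left, bars), and the share of all merged regions in that serum state that held all 3 factors at 24 h (right, percent). Sox2 and Nanog gave the longest bar on the left with 1242 regions, while Oct4 and Nanog gave the longest on the right with 51.5%. With all 6 lists at equal length, 162 regions began with Sox2 and Nanog and 199 with none. With only the 2 lists of each factor at equal length, these counts were 629 and 86.

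Among regions with Sox2 and Nanog in serum, completed ones had serum peaks much like those that kept both factors without Oct4. Fold enrichment is the authors' ratio of signal over control at a peak and was read only within a list. Of the 7246 regions in this state, 3165 kept Sox2 and Nanog at 24 h without an Oct4 peak. Serum Nanog had a median fold of 20.1 (quartiles 13.6 and 28.7) at the 1242 completed regions and 18.4 (12.2 and 28.3) at those 3165. Serum Sox2 had medians of 10.2 and 10.6, and the quartile ranges overlapped widely for both factors. All 7246 regions were also split into 4 bins of serum Nanog fold. Of 1811 regions in the weakest bin, 10.4% were completed (exact binomial 95% interval 9.07 to 11.9). In the strongest bin it was 22.1% of 1812 (20.2 to 24.1). In the 24 h lists the completed regions had higher medians than those 3165, 8.15 against 6.00 for Sox2 and 28.4 against 21.6 for Nanog. All of these lists were used by the rule, so the values are a description.

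Peaks of an added factor had lower median folds in the 24 h lists than peaks of a factor already called in serum. For Oct4, the median 24 h fold was 18.2 (quartiles 14.2 and 23.3) at the 2387 completed regions without serum Oct4, 25.3 (19.5 and 36.4) at the 463 with it and 27.7 (19.3 and 40.9) at kept regions. The Sox2 medians were 6.08, 8.03 and 10.9 in the same order. Nanog gave the widest spread, with 10.4 (7.48 and 16.9) at the 466 regions without serum Nanog, 26.4 (18.0 and 37.8) at the 2384 with it and 30.3 at kept regions. Few added peaks were among the strongest 10% of their 24 h list. These were 47 of 2387 for Oct4, 63 of 1456 for Sox2 and 22 of 466 for Nanog, against 636, 1024 and 1427 of the 2939 kept regions. Since the rule selects on these lists, the values are given without a test.

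**Figure D2:**
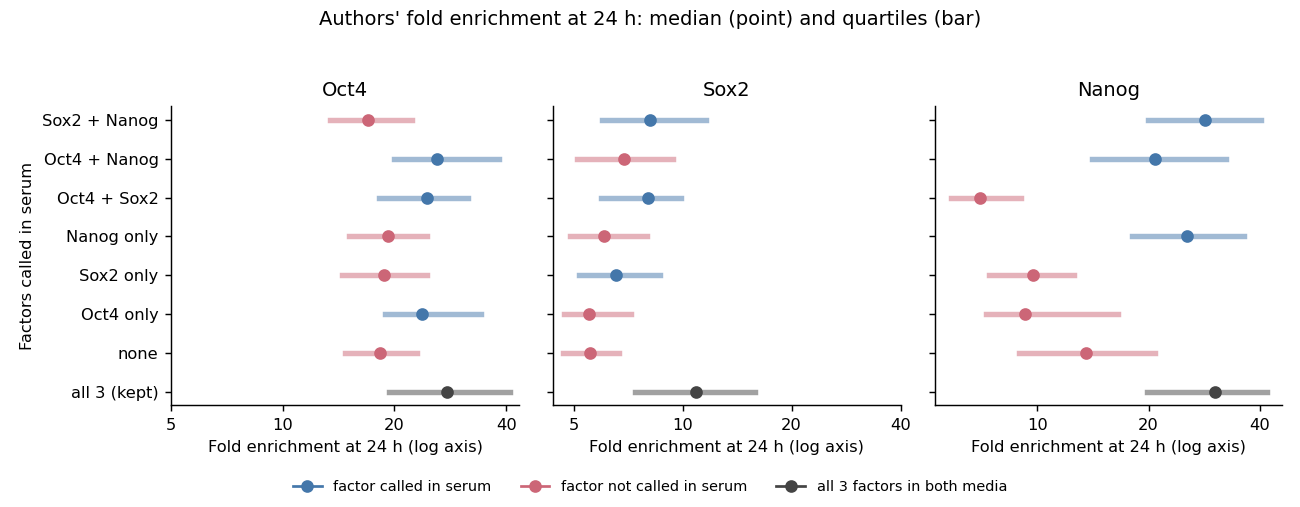
Authors' fold enrichment at 24 h (x axis, log scale) for Oct4, Sox2 and Nanog at completed regions grouped by the factors called in serum, and at kept regions; points are medians and bars span the quartiles. In each panel the states that lacked the factor in serum (red) sit to the left of the kept regions (black), and Nanog at regions that began with Oct4 and Sox2 is lowest in its panel with a median of 6.97.

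Absence from a serum list depends on where that list ends, which is set by q and not by fold. The 2 Oct4 lists ended at nearly the same deposited −log10 q, 86.4 in serum against 85.9 at 24 h, and just 27 of 2387 added Oct4 peaks lay below the serum value. These limits lay far above those of the other factors, so weaker serum Oct4 binding would be counted as missing. For Nanog the lowest values were 14 in serum against 16.0 at 24 h, and none of 466 added peaks lay below 14. The Sox2 lists ended at 17.3 in serum but at 3.69 after 24 h, and 78.6% of the 1456 added Sox2 peaks (1144) had a −log10 q below that of any peak in the serum list. Of the 1394 completed regions that already had Sox2 in serum, 685, or 49.1%, also had a 24 h Sox2 peak below 17.3. By fold, none of the 1456 added peaks lay below the lowest serum Sox2 peak, at 2.14. That lowest value was far below most of the list, since the serum peak ranked 12636 of 13128 by fold still had 5.54. The lower quartile of the added peaks was 4.84, and folds of the 2 lists need not share a scale. The q of a peak also depends on read depth, which is unknown for both lists. When the serum and 24 h lists of a factor were made to end at the same −log10 q, 1027 completed regions were left. A serum peak of the missing factor lay outside the region but within 1 kb of it in 31 cases for Oct4, 32 for Sox2 and 17 for Nanog.

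Regions at the edges of the rule looked like this. By −log10 q, the completed region with the lowest 24 h Oct4 peak, on chromosome 11 from 115090252 to 115091604, had a −log10 q of 85.9 and an Oct4 fold of 12.6. The lowest 24 h Sox2 peak by this measure, on chromosome 7 from 90174660 to 90175966, had 3.69 and a fold of 4.42. The lowest for Nanog was on chromosome 2 from 11093341 to 11094011, with 16.0 and 6.61. Just outside the rule were kept regions whose serum peak barely entered its list. The serum Oct4 peak on chromosome 1 from 73688953 to 73689957 had a −log10 q of 86.4 and a fold of 11.5. The serum Sox2 peak on chromosome 1 from 12015445 to 12016399 had 17.4 and 5.54, and the serum Nanog peak on chromosome 11 from 119505974 to 119507096 had 14.1 and 6.44. At these 3 kept regions the 24 h folds of the same factor were 30.3, 7.79 and 13.0, within or above the quartiles of completed regions that lacked that factor in serum.

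Peaks of the 3 factors lay close together at completed regions. In 2841 of the 2850 completed regions at least 1 base was covered by the 24 h peaks of all 3 factors, and 2727 held at most 1 peak from each of the 6 lists. The summit, the position of the highest signal in a peak, was not itself used by the rule. The rule joined peaks only where they overlapped, so a shared base and nearby summits were partly built in. No expected distance was computed. At 24 h the Oct4 and Sox2 summits lay a median of 42 bp apart (quartiles 19 and 79), Oct4 and Nanog 44 bp (20 and 78), and Sox2 and Nanog 31 bp (14 and 60). Sox2 and Nanog summits were within 50 bp of each other in 69.2% of completed regions, and Oct4 and Sox2 summits in 57.4%. Kept regions had medians of 38, 39 and 28 bp. Peaks at kept regions were also stronger, and the part of peak strength in these distances was not tested. Regions that gained all 3 factors gave nearly the same distances as the rest, with medians of 45, 46 and 36 bp.

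A factor already present in serum had nearby summits in both media, which joining by overlap also favours. Its summit in serum and at 24 h lay a median of 19 bp apart for Nanog at 2384 completed regions, 26 bp for Sox2 at 1394 and 39 bp for Oct4 at 463, against 17, 25 and 30 bp at kept regions. The serum Nanog summit was within 50 bp of the 24 h one in 84.2% of cases and over 250 bp away in 39 cases. Of the 2387 completed regions that lacked an Oct4 call in serum, 1242 had both other factors there. At these 1242 the serum and 24 h summits lay a median of 26 bp apart for Sox2 and 18 bp for Nanog. Their Sox2 and Nanog summits were 27 bp apart in serum and 27 bp apart at 24 h (medians). The 24 h Oct4 summit there lay 43 bp from Sox2.

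**Figure D3:**
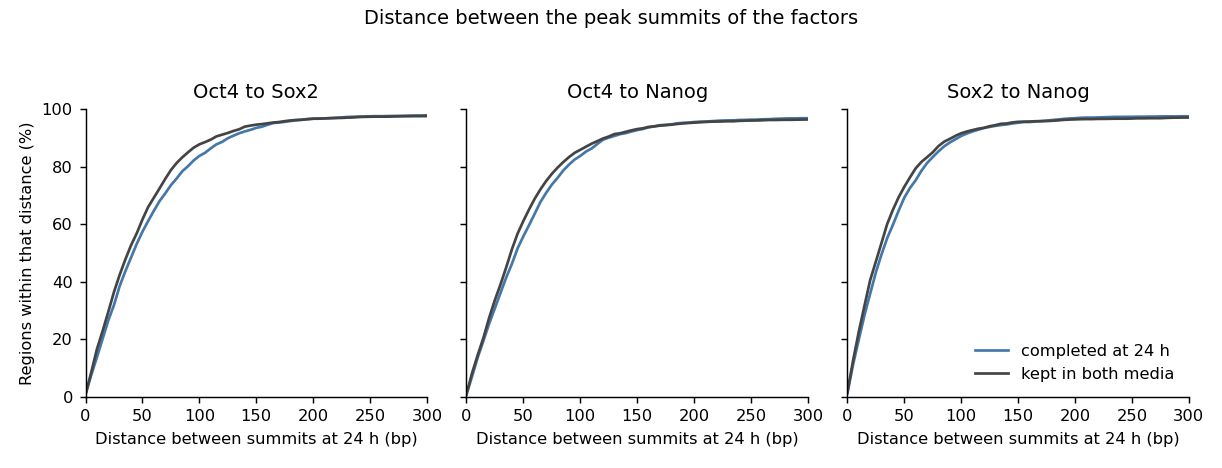
Cumulative share of regions (y axis, percent) whose 24 h summits of 2 factors lay within a given distance (x axis, bp), for completed and kept regions. The curves of both groups run close together, and at 100 bp they have reached 83.7% or more for each pair at completed regions.

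The 8 lists that took no part in choosing the regions were used to follow the completed regions into other conditions. In the sentences that follow, the share over all 49202 merged regions is the background. By the rule every completed region held all 3 factors at 24 h, while most merged regions did not. A Nanog or Sox2 share above this background is thus partly built in. Completed regions had a median width of 1023 bp, kept regions 1334 bp and all merged regions 639 bp, and a wider region meets another list more easily. With a window of 500 bp on the 24 h Oct4 summit in place of the region, the shares with Nanog and Sox2 at 3 passages were 94.0% and 54.3%, close to those below.

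After 3 passages in 2i, Nanog was called at 2682 of the 2850 completed regions, or 94.1% (exact binomial 95% interval 93.2 to 94.9), against a background of 58.8% and 98.7% of kept regions. Sox2 was called at 1561, or 54.8% (52.9 to 56.6), against a background of 17.1% and 87.0% of kept regions. The Sox2 list at 3 passages came from 1 sample and held 8749 peaks, down to a −log10 q of 7.52. The 24 h Sox2 list held 15310, down to 3.69. Weaker Sox2 binding at 3 passages would be counted as missing, here and below. Intervals here and below cover counting error only. The Sox2 share moved with the lists behind the rule. It was 83.6% of completed and 95.6% of kept regions with both lists of each factor at the same lowest −log10 q, and 84.4% and 98.4% with all 6 lists at equal length. Both factors were called at 52.9% of completed and 86.3% of kept regions, and neither at 4.07% and 0.612%. These joint shares were not taken over all merged regions. Sox2 in both serum and 24 h lists was followed by Sox2 at 3 passages in 74.0% (71.6 to 76.2) of 1394 completed regions. The share was 69.6% (68.6 to 70.7) of the 7173 other regions, kept ones included. For Nanog the same shares were 98.0% of 2384 and 83.5% of 18818. The median Sox2 fold at 3 passages, where called, was 6.90 at completed and 8.86 at kept regions. Oct4 at 3 passages was not analysed here, so how many regions then held all 3 factors is not known.

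What was present in serum went with what was called at 3 passages. Regions with serum Sox2 had Sox2 at 3 passages in 80.5% of cases (70.3 to 88.4) when they began with Oct4 and Sox2, 73.8% (71.3 to 76.3) with Sox2 and Nanog, and 68.6% (56.4 to 79.1) with Sox2 alone. Those without serum Sox2 reached 41.7% (Oct4 and Nanog), 40% (Oct4 alone), 36.7% (Nanog alone) and 28.3% (none). The intervals of the 3 states with serum Sox2 did not overlap those of the 4 states without it. For Nanog the split was by serum Nanog. It was called at 3 passages in 97.9%, 97.0% and 98.6% of regions that began with Sox2 and Nanog, Oct4 and Nanog, and Nanog alone, but in 51.2% (39.9 to 62.4) of those that began with Oct4 and Sox2, 67.1% with Sox2 alone, 80.0% with Oct4 alone and 81.8% (76.6 to 86.2) with none.

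**Figure D4:**
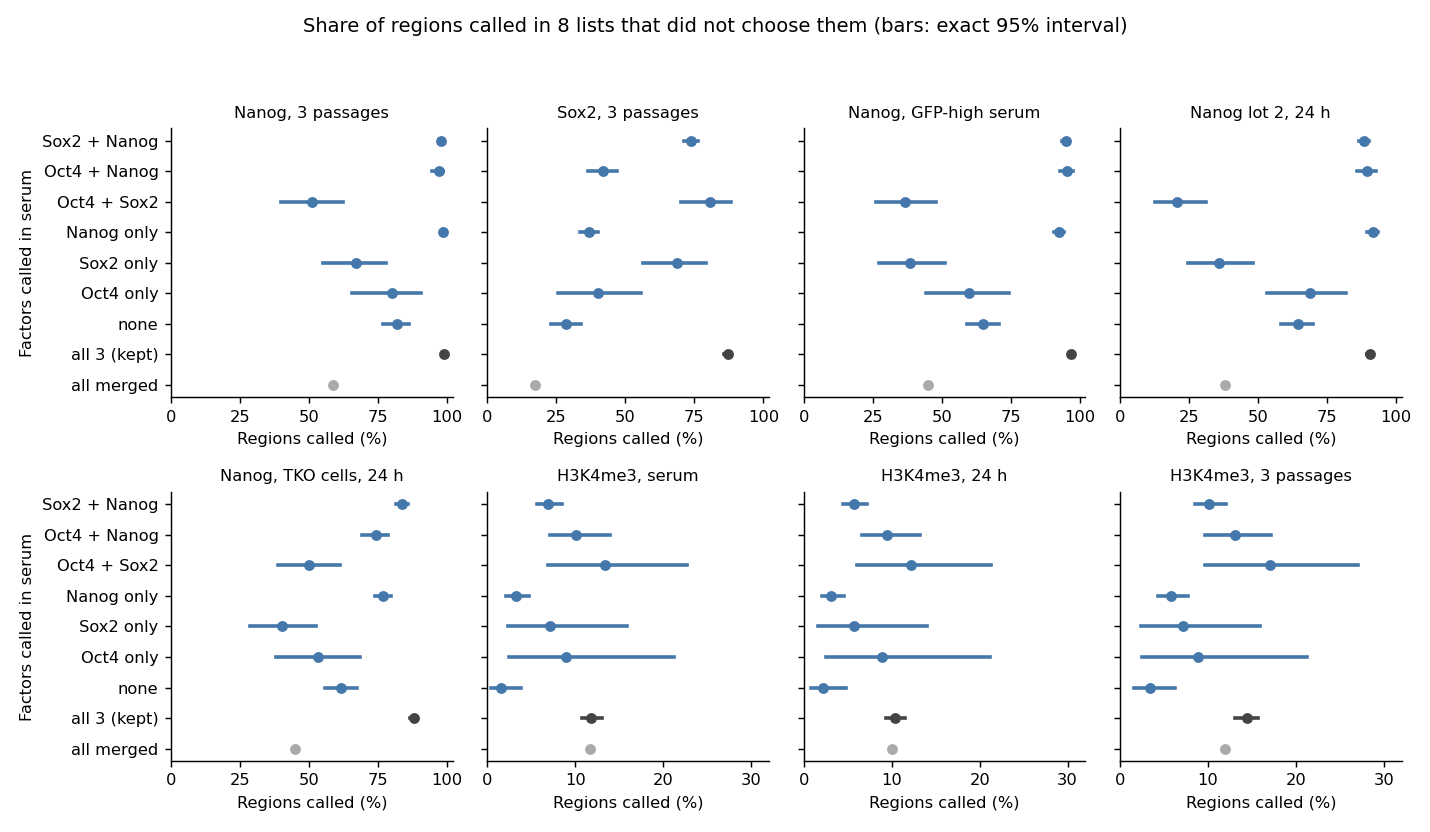
Share of regions (x axis, percent; shorter for H3K4me3) called in each of 8 lists, for completed regions by serum state (blue), kept regions (black) and all merged regions (grey); bars are exact binomial 95% intervals. Nanog at 3 passages is above 96% wherever Nanog was called in serum, and the 82 regions that began with Oct4 and Sox2 are lowest for Nanog with the second lot at 24 h, at 20.7%.

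Gained peaks were next compared with gains of the same factor elsewhere. Of all 6480 regions with Sox2 at 24 h and not in serum, 19.5% had Sox2 at 3 passages. The share was 36.4% (33.9 to 38.9) for the 1456 that belonged to completed regions and 14.6% (13.7 to 15.6) for the other 5024. Of all 20264 regions that gained Nanog, 49.8% had Nanog at 3 passages, with 74.0% (69.8 to 78.0) of the 466 in completed regions and 49.2% (48.5 to 49.9) of the rest. Strong gains were called again more often, so both groups were split by the 24 h fold of the gained peak. Each factor's gains were ranked into 4 equal bins. Among Sox2 gains in the strongest bin (fold above 6.21), 49.7% (45.9 to 53.5) of 696 in completed regions and 30.7% (27.7 to 33.8) of 926 elsewhere were called at 3 passages. In the weakest bin (fold below 4.57) the shares were 17.9% (13.6 to 23.0) and 11.2% (9.59 to 13.1). For Nanog gains they were 94.7% (90.8 to 97.3) and 81.3% in the strongest bin and 43.4% (32.5 to 54.7) and 24.7% in the weakest. In all 8 comparisons within a bin the completed regions had the higher share, with intervals that did not overlap. Strength was not equal within the strongest bin, where median folds were 8.06 in completed regions and 7.29 elsewhere for Sox2, and 18.1 and 14.7 for Nanog. These regions share lists and libraries and the 24 h fold comes from lists the rule used, so this is a description, and the part of peak strength in the difference was not tested.

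**Figure D5:**
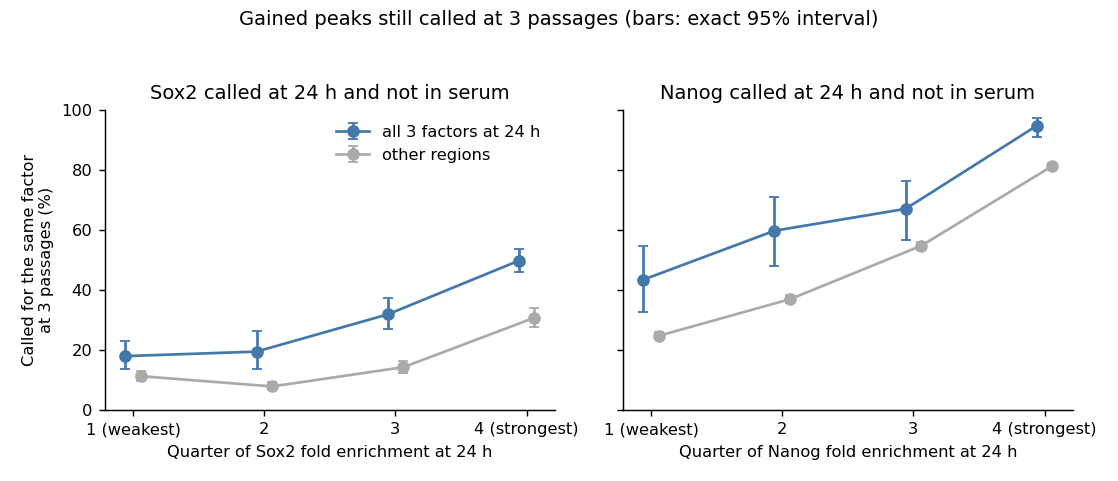
Share of gained Sox2 peaks (left) and gained Nanog peaks (right) whose region was called again for the same factor at 3 passages (y axis, percent), in 4 equal bins of the 24 h fold enrichment (x axis), for completed regions (blue) and other regions (grey); bars are exact binomial 95% intervals. Both lines end higher at the strong side, and the completed regions lie above the others in each bin, from 17.9% to 49.7% for Sox2 and from 43.4% to 94.7% for Nanog.

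The second lot of the Nanog antibody covered another serum sample and a 24 h sample that the rule did not use. In GFP-high serum cells Nanog was called at 2507 of 2850 completed regions, or 88.0% (86.7 to 89.1; background 45.1%), and at 97.0% of kept regions. At 24 h the second lot called 2383, or 83.6% (82.2 to 85.0; background 38.2%), and 90.6% of kept regions. Of the 466 completed regions without serum Nanog in the first lot, 259, or 55.6% (50.9 to 60.2), were called in GFP-high serum, compared with 94.3% of the 2384 that had it. The background for these 466 regions is the share over all 20264 regions that gained Nanog with the first lot, and for GFP-high serum it was 23.4%. At 24 h the second lot called 246 of the 466, or 52.8% (background 26.9%). Gain of Nanog with both lots, that is presence at 24 h and absence in serum, was seen at 66 of the 466 regions, or 14.2% (11.1 to 17.7), which is near its background of 14.4%. The second lot called 180, or 38.6%, in both conditions (background 12.5%), 79, or 17.0%, in GFP-high serum alone (background 11%) and 141, or 30.3%, in neither (background 62.2%). The 2 serum samples differ in antibody lot and in the GFP-high label of the cells, and these cannot be told apart.

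The 269 regions that held no factor in serum were the class most dependent on the lists. They fell to 77 with a minimum −log10 q of 10, to 86 with the lists of each factor at equal length and to 25 with these lists at the same lowest −log10 q. Nanog was called at 175 of the 269, or 65.1% (59.0 to 70.7), in GFP-high serum cells, with a median fold of 9.98 against 29.2 at kept regions. The remaining 94 regions had no factor in any serum list at hand. Of these 94, Nanog was called at 42 (44.7%, 34.4 to 55.3; background 38.2%) at 24 h with the second lot, at 51 (54.3%, 43.7 to 64.6; background 44.7%) in TKO cells at 24 h and at 63 (67.0%, 56.6 to 76.4; background 58.8%) after 3 passages. Sox2 was called at 22 of them (23.4%, 15.3 to 33.3; background 17.1%) after 3 passages. All 4 intervals held the share over all merged regions. These 94 regions all gained Nanog and Sox2 at 24 h by the rule, and most merged regions did not. Over all 20264 regions that gained Nanog with the first lot, in GFP-high serum or not, the second lot called 26.9% at 24 h. Nanog was called at 49.8% of them after 3 passages. Both values lay below the intervals of the 94 regions. Of all 6480 regions that gained Sox2, 19.5% had Sox2 at 3 passages, inside the interval. For TKO cells no such share was taken.

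In TKO cells at 24 h of 2i, Nanog was called at 2168 completed regions, or 76.1% (74.5 to 77.6; background 44.7%), and at 87.8% of kept regions. Regions that began with Sox2 and Nanog had the highest share of the 7 states at 83.8%, and those with Sox2 alone the lowest at 40%. Where the second lot also called Nanog in KH2 cells at 24 h, TKO cells shared 83.3% (81.7 to 84.7) of completed regions, 91.7% of kept regions and 74.0% of all merged regions. The median TKO fold was 20.1 at completed and 25.1 at kept regions. Regions that kept Sox2 and Nanog without Oct4 were called in TKO cells in 67.3% of cases (65.6 to 68.9), against the 83.8% (81.6 to 85.8) of completed regions that began in that same state. With the second lot in KH2 cells at 24 h these shares were 71.9% and 88.4%, and for Sox2 at 3 passages 60.3% and 73.8%. They lay closer together for Nanog at 3 passages, at 95% and 97.9%, and in GFP-high serum, at 91.1% and 95.1%. The regions that kept Sox2 and Nanog without Oct4 were narrower, with a median of 853 bp against 1080 bp. Their median 24 h folds were also lower, 6.00 against 8.15 for Sox2 and 21.6 against 28.4 for Nanog. The part of width and of peak strength in these differences was not tested.

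Completed regions rarely carried H3K4me3. The serum list met 170 of them, or 5.96% (5.12 to 6.90; background 11.7%), the 24 h list 152, or 5.33% (background 10%), and the 3 passage list 249, or 8.74% (background 11.9%). Kept regions were at 11.8%, 10.4% and 14.4%. In any of the 3 lists the mark was found at 9.68% of completed regions, 17.2% of kept regions and 13.8% of all merged regions, and 118 completed regions had it in all 3. The share followed the serum state. H3K4me3 in serum was found at 10.6% (7.93 to 13.7) of the 463 completed regions that held Oct4 in serum and at 5.07% (4.22 to 6.03) of the 2387 that did not. It was found at 4 of the 269 regions that began with no factor, or 1.49% (0.407 to 3.76). The mark was called at 24 h and not in serum at 21 completed regions, in serum and not at 24 h at 39, and at 3 passages alone at 85. These counts, and that of regions with the mark in all 3 lists, were not taken over all merged regions. Whether they are unusual is thus not known. The 3 lists also ended at different −log10 q, 10.5 in serum, 4.91 at 24 h and 14.3 at 3 passages. The nearest serum H3K4me3 peak lay a median of 53.8 kb from a completed region, 37.2 kb from a kept region and 36.4 kb from a merged region of any kind.

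Completed regions were scattered over the genome. They were found on every autosome and on X, from 82 on chromosome 19 to 252 on chromosome 1, and none was on Y. Per 100 merged regions there were 4.74 on chromosomes 8 and 15 and 7.12 on chromosomes 1 and 10, with 7.04 on X. The nearest other completed region was a median of 250.0 kb away and the nearest kept region 238.0 kb, compared with 220.0 kb between kept regions. Within 12.5 kb of a kept region lay 159 completed regions, or 5.58%, while 5.84% of the regions that were neither kept, completed nor triple in serum did so. When completed regions up to 50 kb apart were strung together, 2370 stood alone, 196 formed pairs and 22 formed triplets. The longest string, named after its size was seen, held 6 completed regions on chromosome 1 from 77409368 to 77470737, with no kept region between them.

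For each of the 7 serum states the 3 regions with the best mean rank of fold over the 3 factors at 24 h were taken as examples. Of these 21 regions, 21 were called for Nanog at 3 passages, 19 in GFP-high serum and 15 in all 5 Nanog and Sox2 lists outside the rule. Over all merged regions, 58.8% were called for Nanog at 3 passages and 45.1% in GFP-high serum. The examples were picked for strong 24 h peaks, and strong gains were called again more often, so these counts describe the examples alone. H3K4me3 was absent from 20 of the examples in all 3 lists. The mark was in at least 1 list at 13.8% of all merged regions. In 20 the 3 summits at 24 h lay within 120 bp.

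Among regions that lacked only Oct4 in serum, the leading one was on chromosome 7 from 56592550 to 56593819. Its 24 h folds were 53.7 for Oct4, 30.7 for Sox2 and 68.1 for Nanog, and its serum folds 16.3 for Sox2 and 44.4 for Nanog. At 3 passages it had 51.9 for Nanog and 20.1 for Sox2, and with the second lot 65.4 in GFP-high serum, 78.6 at 24 h and 147.0 in TKO cells. This was a strong site in every Nanog list. The region on chromosome 2 from 101539875 to 101542144 began weaker, with serum folds of 7.61 for Sox2 and 11.7 for Nanog. Its 24 h folds were 56.9 for Oct4, 23.9 for Sox2 and 57.4 for Nanog, and TKO cells gave 200.0. The next, on chromosome 6 from 128944057 to 128945230, had serum folds of 14.8 and 52.1 for Sox2 and Nanog and 24 h folds of 55.6, 22.5 and 59.8 for Oct4, Sox2 and Nanog. It was higher for Nanog in GFP-high serum, at 123.0, than in TKO cells, at 65.9, but these lists need not share a scale.

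Regions that lacked only Sox2 included the strongest Oct4 sites of the whole group of examples. On chromosome 17 from 57642336 to 57643451 the Oct4 fold was 20.2 in the serum list and 129.0 in the 24 h list, and Nanog had 36.0 and 101.0. Sox2 was called at 24 h with a fold of 37.7 and at 3 passages with 18.0. The other 2 were on X. From 154922628 to 154924306, Oct4 had 90.6 in serum and 127.0 at 24 h, Nanog 48.9 and 74.1, and Sox2 24.9 at 24 h. From 161075560 to 161076690, Oct4 had 31.6 and 106.0, Nanog 35.6 and 70.7, and Sox2 25.3 at 24 h. The last of these was called neither for Sox2 at 3 passages nor for Nanog in TKO cells.

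Regions that lacked only Nanog in serum had Nanog folds of 13.8 to 36.2 in the 24 h list, below those of the examples with serum Nanog. The leading one, on chromosome 11 from 89481229 to 89482175, had a Nanog fold of 36.2 at 24 h, 15.8 at 3 passages and 10.9 in GFP-high serum. Its Oct4 folds were 21.7 in serum and 24.3 at 24 h, and its Sox2 folds 11.8 and 16.4. The region on chromosome 16 from 13747980 to 13751242 stood apart. It was 3263 bp wide, its 24 h summits spanned 722 bp, and Nanog in GFP-high serum had a fold of 75.9 although the first lot gave no serum peak. It was the 1 example with H3K4me3, with folds of 5.75 in serum and 5.02 at 3 passages. On chromosome 8 from 116121878 to 116122954, Nanog had a fold of 13.8 at 24 h, 4.96 at 3 passages and 6.01 in GFP-high serum, and was not called with the second lot at 24 h.

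Where Nanog alone was present in serum, the examples gained strong Oct4 peaks. On chromosome 12 from 57368920 to 57370280 Nanog had a fold of 15.7 in serum and 61.3 at 24 h, with Oct4 at 59.5 and Sox2 at 19.2. On chromosome 2 from 44330105 to 44330928 Nanog had 25.4 and 56.3, with Oct4 at 46.7 and Sox2 at 24.8, and the 3 summits spanned 26 bp. Both were called for Sox2 at 3 passages, with folds of 8.34 and 7.68. The third, on chromosome 16 from 84462181 to 84463158, had Nanog folds of 48.8 and 81.6, Oct4 at 65.2 and Sox2 at 14.7, and was not called for Sox2 at 3 passages.

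The examples that began with Sox2 alone had 24 h Sox2 folds from 8.49 to 9.63, above the median of 5.95 over that list. The first, on chromosome 5 from 78095861 to 78096916, had 24 h folds of 28.6 for Oct4, 9.63 for Sox2 and 27.7 for Nanog, after 8.27 for Sox2 in serum, and was not called in TKO cells. On chromosome 6 from 49222560 to 49223429 the 24 h folds were 22.0, 8.49 and 22.9, and Nanog with the second lot reached 42.2 at 24 h and 14.3 in GFP-high serum. On chromosome 2 from 4341481 to 4342189 they were 27.3, 8.70 and 17.7. This last region was absent from GFP-high serum and had a summit span of 18 bp.

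Starting from Oct4 alone, the region on chromosome 4 from 151416898 to 151417934 had Oct4 folds of 19.2 in serum and 45.2 at 24 h, with Sox2 at 11.2 and Nanog at 30.5. On chromosome 2 from 55073743 to 55075017 Oct4 had 32.4 and 103.0, with Sox2 at 15.3 and Nanog at 21.4. Nanog had a fold of 52.0 there in GFP-high serum, so its absence from the serum list of the first lot was not shared by the second. On chromosome 6 from 8317691 to 8318999 Oct4 had 16.0 and 16.7, Sox2 8.98 and Nanog 38.6, with 8.20 for Nanog in GFP-high serum.

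At regions where all 3 factors were new, the leading example lay on chromosome 14 from 55070898 to 55072052, with 24 h folds of 43.4 for Oct4, 21.0 for Sox2 and 65.4 for Nanog. Nanog had a fold of 13.0 in GFP-high serum, 56.1 at 24 h with the second lot, 155.0 in TKO cells and 51.4 at 3 passages. On chromosome 9 from 111660317 to 111661244 the 24 h folds were 44.4, 14.8 and 49.5, and Nanog had 9.5 in GFP-high serum and 33.7 at 3 passages. The example on chromosome 12 from 90980401 to 90981393 had 42.4, 10.6 and 44.0. Outside the 24 h lists of the rule it was called in 1 other list, that of Nanog at 3 passages with a fold of 12.1, and neither with the second lot at 24 h nor in TKO cells.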

How the data were processed

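ChIP-seq peak lists of mouse embryonic stem cells were analysed. The labels hold 36 samples, of which 22 stand behind the 14 lists and 10 behind the 6 lists of the rule. The 10 RNA, 3 H3K27me3 and 1 whole-cell extract samples were not used here. Tools named in the submitters' processing notes are the aligners BWA 0.5.7 and Bowtie 0.12.7 and the peak caller MACS2, with build mm9. The notes do not tie an aligner to a list. By the peak names in the files, the authors called peaks on pooled replicates against a control, although for Oct4, Sox2 at 3 passages and Nanog of the second lot the labels hold 1 sample. The deposited values used were fold enrichment (a ratio over control), the q-value as −log10 q, and the summit offset, which is in bp. Peak numbers in the names run past the rows, so the authors deposited some of their calls. How these were chosen is not stated at hand. Sox2 samples are labelled as RNA in molecule, but their files are peak lists and were used as ChIP-seq. Read depth is unknown.

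Peaks of the 6 lists were joined wherever they shared 1 bp, leaving out unplaced sequence (Python 3.11.15, pandas 2.3.3, numpy 2.4.6). Where a region held several peaks of a list, the one with the highest fold was used. A region was called in another list if it shared at least 1 bp with a peak there. Shares carry exact binomial (Clopper-Pearson) 95% intervals (scipy 1.17.1). The code was tested on simulated peaks and against bedtools 2.31.1. No test between media was possible with 1 list each. Examples were the 3 regions per serum state (of at least 20 regions) with the lowest mean rank of 24 h fold, and the regions on each side of each limit. Members, lists and examples were chosen with earlier results of these data known. Positions are mm9, counted from 1. The annotation and sequence tables at hand are of GRCm38.p6, so regions were neither given genes nor printed as sequence, and the planned motif and gene list counts were not made.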

Additional observations from a re-analysis of the deposited data

How the results depend on the processing

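Each of 11 values was recomputed under up to 10 alternatives, and 67 of 105 recomputed values stayed close to the reported one (counts within 1.5 times, shares within their 95% interval). An overlap of 50% of the shorter peak, joining peaks up to 1000 bp apart, and leaving out X and Y moved none of the 11. Completed regions had a lower share than kept regions in all 11 settings for Sox2 at 3 passages and for serum H3K4me3, and in 10 for Nanog at 3 passages, the exception being a tie. With a minimum −log10 q of 10 there were 1735 completed regions, 379 with only Nanog and 77 with no factor in serum, and the share with Nanog at 3 passages was 96.0%, that with Sox2 72.1% (kept regions 92.0%). With the 2 lists of each factor at equal length there were 1451 completed regions, of which 629 lacked only Oct4, 410 had only Nanog and 86 had none; Nanog at 3 passages was at 98.3% (kept 99.6%) and Sox2 at 61.6% (89.9%). With both lists of each factor at the larger of their lowest −log10 q there were 1027, 644, 160 and 25; the shares were 97.1% (99.2%) for Nanog, 83.6% (95.6%) for Sox2 and 4.87% for serum H3K4me3. With all 6 lists at 5011 peaks there were 818 completed regions, 162 lacking only Oct4, 79 with only Nanog and 199 with none, so that regions with none outnumbered those lacking only Oct4; Nanog at 3 passages was at 100% in both groups after rounding, and Sox2 at 84.4% (98.4%). These settings keep fewer and stronger peaks by construction. With the second Nanog lot in place of the first, 88 completed regions began with no factor, and the shares were 99.0% (99.7%) for Nanog and 58.6% (89.2%) for Sox2. Among alternatives chosen after seeing the data, counting serum Nanog of either lot left 94 regions with no factor in serum, and 500 bp windows gave serum H3K4me3 at 5.09% of completed and 9.56% of kept regions. The cause of the other moves was not tested. No paired analysis was possible because each condition has 1 pooled list and no value per replicate, and for the same reason no replicate could be left out.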

Other observations

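Of the 5 Nanog and Sox2 lists that did not choose the regions, all 5 called 1224 of the 2850 completed regions, or 42.9% (exact 95% interval 41.1 to 44.8), and 75.1% (73.5 to 76.6) of kept regions. Sox2 at 3 passages was called at 17.1% of all merged regions, so at most that share could be in all 5. None of the 5 called 53 completed regions, or 1.86% (1.40 to 2.43), and 5 kept regions. At 1173 completed regions, or 41.2%, Nanog was called at 3 passages without Sox2, while Sox2 was called without Nanog at 52. These combined counts were not taken over all merged regions, so whether they are unusual is not known. Regions with all 3 factors in serum and fewer at 24 h, 666 in number, had Sox2 at 3 passages in 42.8% of cases (39.0 to 46.7) and Nanog in 82.9% (79.8 to 85.7), both below the 54.8% and 94.1% of completed regions, and serum H3K4me3 in 14.6% (12.0 to 17.5), above the 5.96%.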
